A study of Mus musculus with 15 samples.

Results

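The Prame-like genes treated here are 8 mouse genes of the PRAME family, out of 46517 genes counted in the RNA libraries: Pramef25, BC080695, Pramef17, Pramel1, Pramef8, Pramef12, Pramel6 and Pramel7. They were picked by name from counts of these same libraries, as genes switched on in knockout kidneys together with a silent pair, Pramel6 and Pramel7. Their RNA difference between knockout and control is therefore given as a description with no test. The DNA methylation at these genes was not used to choose them and is tested. The deposited counts did not bear out the description for all 6 genes picked as switched on: Pramef25, BC080695, Pramef17 and Pramel1 went from near 0 to a clear signal, whereas Pramef8 was expressed in every library and Pramef12 was low in every library.

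All mice were C57BL/6. Control kidneys came from newborn mice (postnatal day 0) that carried Dnmt1 f/f, a Dnmt1 allele flanked by loxP sites, without Cre. Knockout (KO) kidneys came from newborns with Six2Cre and Dnmt1 f/f, in which the Six2 promoter drives Cre recombinase in nephron progenitors, so that the cells descending from other lineages keep Dnmt1. A group measured for methylation alone was kidney of 6-week-old wild type mice. RNA sequencing covered 3 control and 3 KO libraries, and reduced representation bisulfite sequencing (RRBS), which reads methylation at CpG-dense restriction fragments, covered 3 libraries of each of the 3 groups. The labels name Six2+ cells as the source, while the extraction text names whole kidneys, and markers of tubule, podocyte, endothelium and stroma were all present in the RNA. The labels do not state that the libraries of a group came from separate animals, so the p-values measure the spread between these libraries. In bulk tissue of this kind, fewer cells of a type and less RNA per cell cannot be told apart.

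PRAME family genes encode leucine-rich repeat proteins that serve as substrate receptors of CUL2 ubiquitin ligases. Most mouse members are expressed in germ cells, oocytes or the early embryo, lie in clusters of recent duplicates, and are silent in adult somatic tissue. Human PRAME, the founding member, is a tumour antigen that can repress retinoic acid receptor signalling. PRAMEL7 directs the degradation of UHRF1, the protein that recruits DNMT1 to newly replicated DNA, in naive embryonic stem cells, and Pramel6 and Pramel7 are expressed in those cells downstream of the LIF and STAT3 pathway.

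The members sit in 2 places. In GRCm38, RefSeq places Pramel1 at chr4:143394441-143399819, Pramef8 at chr4:143412155-143421091, Pramef25 at chr4:143948183-143951016, Pramef17 at chr4:143991127-143994369 and Pramef12 at chr4:144391674-144408467. Pramel7 lies at chr2:87489088-87492418 and Pramel6 at chr2:87506565-87510865. BC080695 was matched to no RefSeq entry and is given no position. RefSeq now lists Pramef25 as Pramel16, Pramef8 as Pramel12, Pramef12 as Pramel13 and Pramef17 as Pramel14, and the deposited names are kept here.

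The promoter sequences show how little CpG most of these genes offer to methylation. Each is the RefSeq GRCm38 sequence of 300 bases, from 250 before to 50 after the gene start, read 5′ to 3′ on the gene's own strand, with CpG sites in capitals. The first is Pramel1, on the plus strand at chr4:143394191-143394490, with 20 CpG.

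Pramel1: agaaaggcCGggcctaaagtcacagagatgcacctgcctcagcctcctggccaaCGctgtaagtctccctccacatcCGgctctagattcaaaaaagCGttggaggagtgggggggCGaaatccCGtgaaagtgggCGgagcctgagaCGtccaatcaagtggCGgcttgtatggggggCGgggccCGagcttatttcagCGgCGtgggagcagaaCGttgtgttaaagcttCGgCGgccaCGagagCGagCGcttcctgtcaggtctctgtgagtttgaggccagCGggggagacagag

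Pramef12, on the minus strand at chr4:144408415-144408714, held 7 CpG. Its RRBS positions with at least 5 calls in all 9 libraries began 81 bases after the start, beyond the printed bases.

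Pramef12: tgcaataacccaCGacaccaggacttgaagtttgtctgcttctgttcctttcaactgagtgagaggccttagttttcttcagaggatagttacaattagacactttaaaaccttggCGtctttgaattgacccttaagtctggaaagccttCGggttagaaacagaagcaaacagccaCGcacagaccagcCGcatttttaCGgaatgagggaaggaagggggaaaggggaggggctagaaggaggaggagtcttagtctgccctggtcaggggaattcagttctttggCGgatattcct

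Pramef25, on the minus strand at chr4:143950967-143951266, was the most counted of the switched-on members and held a single CpG.

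Pramef25: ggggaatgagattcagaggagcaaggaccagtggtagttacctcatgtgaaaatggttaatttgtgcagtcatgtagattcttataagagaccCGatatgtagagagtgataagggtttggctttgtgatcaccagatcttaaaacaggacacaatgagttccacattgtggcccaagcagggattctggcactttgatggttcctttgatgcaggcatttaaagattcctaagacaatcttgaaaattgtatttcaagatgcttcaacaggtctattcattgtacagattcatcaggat

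The next 3 promoters are close in sequence but belonged to genes with different counts. Pramef17, on the minus strand at chr4:143994320-143994619, was switched on and held 2 CpG. Gm13128, a family gene outside the 8 on the plus strand at chr4:144329999-144330298, was nearly without counts and held 4 CpG. Pramel7, on the minus strand at chr2:87492369-87492668, had no count and held 1 CpG.

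Pramef17: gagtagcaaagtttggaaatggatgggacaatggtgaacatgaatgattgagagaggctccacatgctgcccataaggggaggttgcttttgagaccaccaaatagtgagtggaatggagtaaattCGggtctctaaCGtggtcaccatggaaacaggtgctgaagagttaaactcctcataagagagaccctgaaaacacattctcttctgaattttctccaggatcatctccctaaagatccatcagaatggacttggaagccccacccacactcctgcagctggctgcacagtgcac

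Gm13128: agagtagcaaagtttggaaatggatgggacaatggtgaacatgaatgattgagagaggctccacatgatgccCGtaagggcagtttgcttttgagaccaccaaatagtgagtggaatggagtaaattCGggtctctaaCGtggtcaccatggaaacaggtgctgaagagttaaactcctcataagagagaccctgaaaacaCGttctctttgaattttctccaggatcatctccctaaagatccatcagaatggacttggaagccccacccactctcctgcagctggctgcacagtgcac

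Pramel7: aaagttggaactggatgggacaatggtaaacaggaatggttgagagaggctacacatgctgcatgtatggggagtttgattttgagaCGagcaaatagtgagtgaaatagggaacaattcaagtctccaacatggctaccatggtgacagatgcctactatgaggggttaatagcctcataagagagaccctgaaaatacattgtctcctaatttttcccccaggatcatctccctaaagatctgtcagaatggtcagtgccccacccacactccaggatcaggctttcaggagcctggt

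Pramel6, the other silent member, on the plus strand at chr2:87506315-87506614, held 3 CpG.

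Pramel6: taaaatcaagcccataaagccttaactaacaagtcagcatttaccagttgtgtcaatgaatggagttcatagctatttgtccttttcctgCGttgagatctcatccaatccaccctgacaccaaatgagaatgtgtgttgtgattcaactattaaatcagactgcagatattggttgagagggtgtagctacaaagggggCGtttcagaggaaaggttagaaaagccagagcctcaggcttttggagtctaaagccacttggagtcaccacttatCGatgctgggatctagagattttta

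Among 27025 RefSeq promoters of the same length, the median number of CpG was 7, and 31.9% held at most 3. Among the 43 promoters of the family in that table the median was 1, and 38 of them, 88.4%, held at most 3. Pramel1 stood at the other end with 20 CpG, the most in the family, a number reached by 26.8% of all promoters. The Pramef17 and Gm13128 promoters were 97.3% identical in a global alignment, with 293 identical bases, 6 mismatches and 2 gap positions. Pramef17 and Pramel7 were 75.2% identical, against a median of 47.6% over the 903 pairs of family promoters. A switched-on and a nearly silent gene thus had nearly the same start region. Pramef8 and BC080695 had no entry in the promoter table.

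The RNA libraries held 26773937 to 34102567 counts assigned to genes, and normalised levels are given as CPM, counts scaled to a common effective library size per the TMM method. Of the total over all lines of a count file, 13.97% to 24.6% in controls and 22.5% to 28.0% in KO libraries were alignments that were not unique and stood outside the gene counts, so counts of near-identical family copies are uncertain. The labels state no strand setting. Dnmt1 had 5908, 4826 and 6921 counts in controls and 3526, 3378 and 2467 in KO libraries, a log2 fold change of -0.74 (SE 0.12; adjusted p 0.00577, edgeR's quasi-likelihood test with Benjamini-Hochberg adjustment), with every KO library below every control. The controls differed more among themselves than the KO libraries did: the count comparison over genes gave a chi-square per degree of freedom of 114 between controls 1 and 2, 117 between 1 and 3 and 225 between 2 and 3, against 19.7 to 31.6 among KO libraries. Among RRBS libraries, KO 3 was the shallowest, with 18424875 methylation calls against up to 88765177.

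Pramef25 (ENSMUSG00000078511.3) was the member with the most counts among those switched on. Controls 1, 2 and 3 held 0, 1 and 1 counts, and KO libraries 1, 2 and 3 held 1094, 904 and 942. Every KO library was near the same level, 33.2 ± 3.18 CPM (SD, n = 3), and no control came close. The ratio of the pooled levels was 1662 with a 95% interval of 460 to 13732, an interval wide because it rests on 2 control counts and covers counting error only.

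BC080695 (ENSMUSG00000070618.9) followed the same pattern. Its counts were 0, 0 and 1 in controls and 863, 716 and 571 in KO libraries. The KO level was 24.0 ± 2.64 CPM (SD, n = 3), and the lowest KO library was still far above the control with 1 count. The pooled ratio was 2431 (95% counting interval 436 to 96072). It rests on the 1 count of control 3, and without that library the fitted log2 fold change moved from 10.76 to 12.52.

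Pramef17 (ENSMUSG00000078509.1) had no count in any control and 64, 41 and 33 counts in the KO libraries, or 1.53 ± 0.404 CPM (SD, n = 3). Against a floor of 3 counts over the control group, which corresponds to 0.0298 CPM, it was at least 52.0-fold higher in KO. Its near copy at the promoter, Gm13128, had 0, 0 and 0 counts in controls and 0, 2 and 0 in KO libraries. Reads that fit both genes equally well stand outside the counts of both.

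Pramel1 (ENSMUSG00000041805.3) was the weakest of the switched-on members. It had no count in controls and 14, 8 and 16 counts in KO libraries, or 0.436 ± 0.173 CPM (SD, n = 3), at least 14.3-fold above the same floor. All 3 KO libraries held more counts than any control, yet Pramel1 did not pass the edgeR filter on low counts.

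Pramef8 (ENSMUSG00000046862.13) did not behave as a switched-on gene. It had 938, 835 and 752 counts in controls and 1025, 973 and 876 in KO libraries. The levels were 28.6, 27.0 and 20.4 CPM in controls and 31.9, 31.9 and 33.3 CPM in KO libraries, so each KO library lay above each control by a small margin. The log2 fold change was 0.35 (SE 0.15), and 0.22 without control 3, which had the lowest level.

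Pramef12 (ENSMUSG00000028591.10) was low in both groups. Controls held 36, 29 and 22 counts, or 0.878 ± 0.255 CPM (SD, n = 3), and KO libraries held 13, 28 and 11, or 0.580 ± 0.292 CPM. The groups overlapped, with KO 2 as high as the controls. The log2 fold change was -0.59 (SE 0.44), and -1.09 without KO 2. Pramef12os, annotated on the opposite strand, held 1 count in all 6 libraries, and without a stated strand setting the reads of the pair cannot be told apart.

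Pramel6 (ENSMUSG00000025838.11) and Pramel7 (ENSMUSG00000025839.3) had 0 counts in all 6 libraries. At this depth a count of 0 allows a level of up to 0.0298 CPM over the controls and 0.0337 CPM over the KO libraries (3 counts per group). The 4 switched-on members were all above that limit in KO, Pramel1 at 0.436 CPM being nearest to it. Having at most 3 counts in the controls together and over 3 in every KO library was true of 0.847% of the 46517 genes, a share that describes the whole table and supports nothing about members chosen on this contrast.

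**Figure D1:**
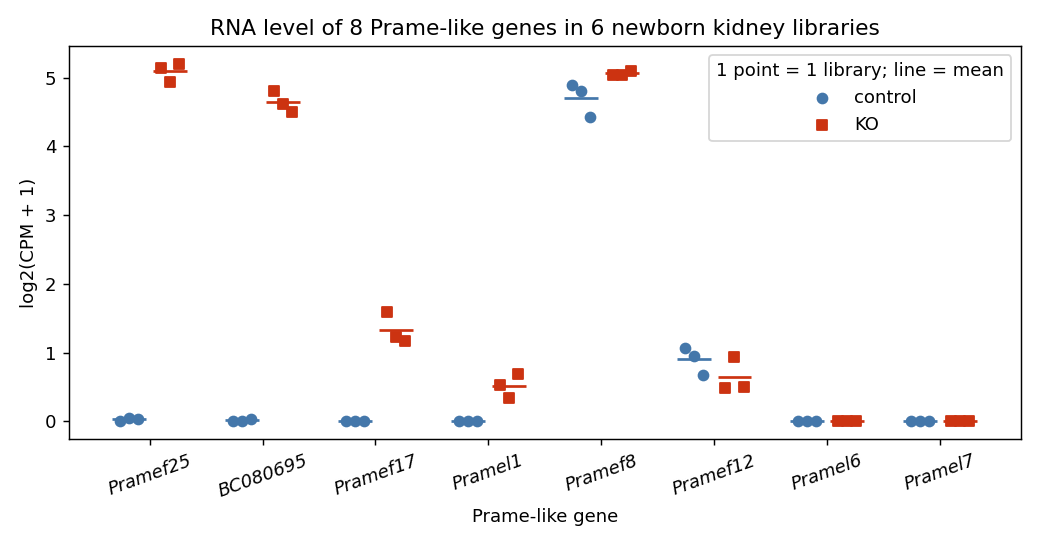
RNA level of the 8 Prame-like genes, as log2(CPM + 1) on the vertical axis, with 1 point per library (3 control, 3 KO) and a line at each group mean. Pramef25, BC080695, Pramef17 and Pramel1 are at or near 0 in controls, Pramef8 is high in both groups, Pramef12 overlaps, and Pramel6 and Pramel7 lie at 0.

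The rest of the family held further switched-on and silent genes, and none with over 3 counts in the controls. The count files held 34 further family genes, and 13 of them had no count in any library. Another 10 had at most 3 counts in the controls together and over 3 in every KO library, 1 had at most 3 in controls and 1 to 3 in a KO library, and 10 had at most 3 in controls and 0 in at least 1 KO library. Every KO library lay above every control for 11 of the 21 with a count in any library, against 13.6% of the 30538 genes with a count. Only 7 passed the edgeR filter, all through their KO counts, so their being called higher describes the filter as much as the genes. The background for that call was 6.36% higher and 8.23% lower among 18132 genes.

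The 10 further switched-on genes reached levels from 0.211 to 21.3 CPM in KO. Gm13119 had no control count and 619, 554 and 692 KO counts, at least 703-fold above the floor. Gm13078 had none in controls and 486, 431 and 353 in KO, at least 479-fold higher. Gm12794 had 0, 0 and 1 counts in controls and 526, 375 and 440 in KO, a ratio of 1516 (95% counting interval 272 to 59939) that likewise rests on 1 count of control 3, without which its fitted log2 fold change moved from 10.09 to 11.85.

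Of these 3, Gm13119 overlapped BC080695 in CPM across the KO libraries, and Gm13078 and Gm12794 lay below it in each. Gm13083 held 163, 98 and 143 KO counts, Pramef6 held 113, 73 and 103, and B020004J07Rik held 84, 73 and 105, with 1 control count between them. C87499 held 23, 26 and 28 KO counts. Pramel5 held 20, 9 and 12, Pramel3 held 11, 7 and 11, and Gm6509 held 6, 9 and 4, all without a control count. Leaving out Pramef8, the summed family counts were 39, 32 and 27 in controls and 4116, 3375 and 3476 in KO libraries, so no KO library came near a control.

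By place, 11 of the 26 family genes on chromosome 4 were switched on, 1 of 7 on chromosome 5, 1 of 3 on chromosome X, 0 of 2 on chromosome 12 and 0 of 2 on chromosome 2, where the 2 are Pramel6 and Pramel7. The chromosome 4 cluster from Pramel1 to Pramef12, between 143394441 and 144408467, held 23 family genes: 8 switched on, 8 with no count, 2 expressed in controls (Pramef8 and Pramef12) and 5 in between. The switched-on and silent genes were interspersed along the cluster. Pramef17, for example, lies between Gm13101, with 6, 0 and 3 KO counts, and Pramel4, with none.

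**Figure D2:**
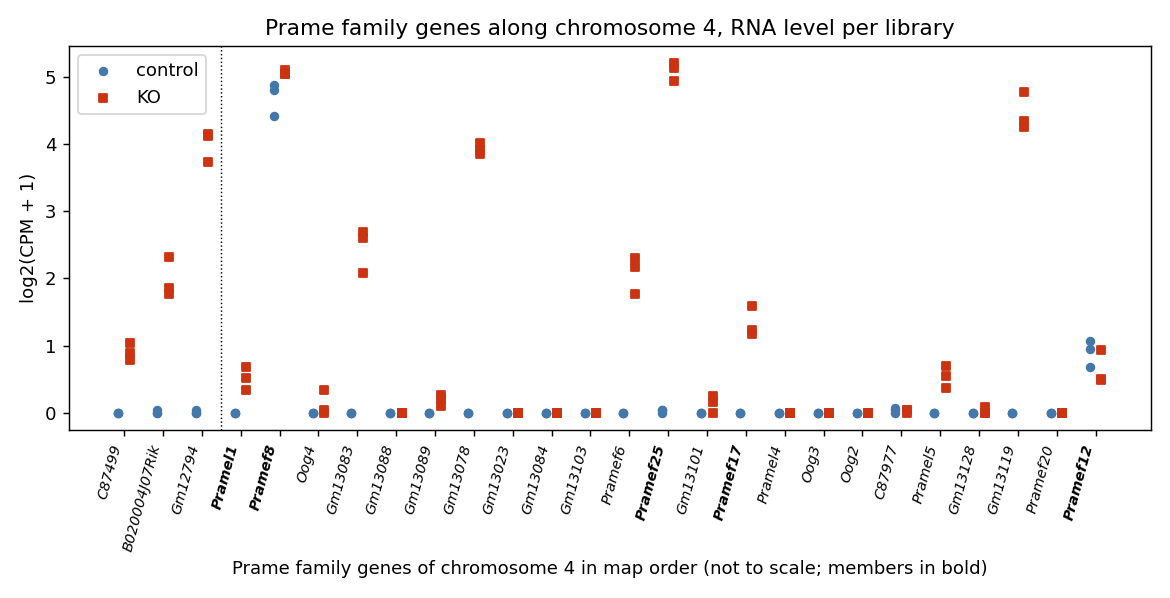
RNA level, as log2(CPM + 1), of the 26 Prame family genes of chromosome 4 in map order (members in bold), with 1 point per library. The 3 genes left of the dotted line lie apart from the 23 genes of the main cluster, and genes with high KO points are interspersed with genes at 0.

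Of the nearest genes outside the family only Prdm2 and Pdpn could be tested, and neither was called. The closest protein-coding genes before it are Prdm2, Pdpn and Lrrc38. Prdm2 had a log2 fold change of -0.13 (SE 0.12; edgeR adjusted p 0.528) and Pdpn one of 0.36 (SE 0.26; edgeR adjusted p 0.439), while Lrrc38 held 2 to 8 counts in every library and was not tested. The 3 genes after it, 1700012P22Rik, Aadacl3 and Aadacl4fm1, had no count. Of the 4 genes inside the cluster that carry no family name, Gm13043 had 0 counts in controls and 8, 5 and 6 in KO libraries, which meets the count rule used here for switched-on genes, and Gm13040, Gm13057 and Gm13102 had none. Around Pramel6 and Pramel7, the nearest 3 protein-coding genes on each side are olfactory receptor genes, all with 0 counts in all 6 libraries.

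RRBS asks whether the DNA at these genes lost methylation in the KO. Positions with at least 5 calls in all 9 libraries, within the gene and 2 kb on each side, were summed per gene and library. Pramel1, Pramef12 and Pramef8 had such positions. Pramef25 and Pramef17 had no position in any library, Pramel6 and Pramel7 had none with that coverage, and BC080695 had no coordinates, so methylation of the 3 most counted switched-on members was not measured here. Of 17071 gene windows tested, 59.0% were lower in KO and 0.041% higher at an adjusted p under 0.05. Within 1 kb of the gene start 882 of 10580 windows were lower in KO, and of the windows under 5% in controls 11 of 2266 were.

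Pramel1, with 17 positions from -242 to 383 bases relative to its start, was methylated at 86.8%, 93.7% and 90.2% in controls and at 69.98%, 62.3% and 74.2% in KO libraries, from 424, 1167, 591, 463, 594 and 186 calls. Every KO library lay below every control, with means of 90.2 ± 3.43% and 68.8 ± 6.04% (SD, n = 3). The difference was -21.4 percentage points (adjusted p 0.000161, moderated quasi-binomial fit with limma over all windows). Among windows within 1 kb of a start its adjusted p was 0.000352 in the same kind of fit. An exact two-sided permutation test over the 6 libraries gave p = 0.1, the smallest that 3 against 3 can give.

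The loss at Pramel1 was partial and spread over the region. The KO mean was lower at 16 of the 17 positions, and at 9 of them every KO library lay below every control. Position means ranged from 76.5% to 100% in controls and from 41.0% to 89.6% in KO. Single positions rest on 5 to 182 calls per library. The promoter printed above held 20 CpG. On these, 15 positions were read in at least 1 library and 4 had 5 calls in all 9. Positions 143394245 and 143394246 are neighbouring bases of the same CpG, so positions are not a count of sites.

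Pramef12, with 12 positions, was methylated at 72.4%, 82.5% and 76.8% in controls and at 51.7%, 46.5% and 66.4% in KO libraries, from 146 to 1052 calls. Every KO library was below every control, and KO 3, the shallowest, was nearest to them. The difference was -22.4 points (adjusted p 0.000441, same fit; exact permutation p = 0.1). Its RNA level, given above, overlapped between the groups.

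The positions of Pramef12 lay in 2 places. The 8 positions from 81 to 454 bases after the start fell from 86.1 ± 3.82% to 65.8 ± 7.70% (SD, n = 3 each). The 4 positions inside the gene, 4381 to 4422 bases after the start, had 48.9%, 56.3% and 55.7% in controls and 4.17%, 13.3% and 39.3% in KO libraries. Both places were lower in every KO library than in every control (exact permutation p = 0.1 for each). KO 3 gave only 28 calls at the inner place, 7 at each position, with 0% to 71.4% by position.

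Pramef8, with 19 positions between 143412051 and 143412789 on chromosome 4, was nearly unmethylated in every library. Controls stood at 1.43%, 1.40% and 1.02% and KO libraries at 1.82%, 1.14% and 1.32%, from 755 to 4490 calls. The groups overlapped, with a difference of 0.14 points (adjusted p 0.819, same fit; exact permutation p = 0.6). At 17 of the 19 positions the control mean was under 5%. Of the 2 members with RNA in all controls, Pramef8 was thus nearly unmethylated and Pramef12 was methylated at 77.2 ± 5.08% in controls (SD, n = 3).

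The sizes of these losses were those of other windows with the same starting level. Among 2142 windows with at least 80% methylation in controls, the median difference was -24.0 points, with the middle 90% from -35.4 to -14.1, beside -21.4 for Pramel1. Among 2744 windows with 60 to 80% the median was -18.9 points, from -28.2 to -10.9, beside -22.4 for Pramef12. Among 2266 windows under 5% the median was -0.05 points, beside 0.14 for Pramef8.

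**Figure D3:**
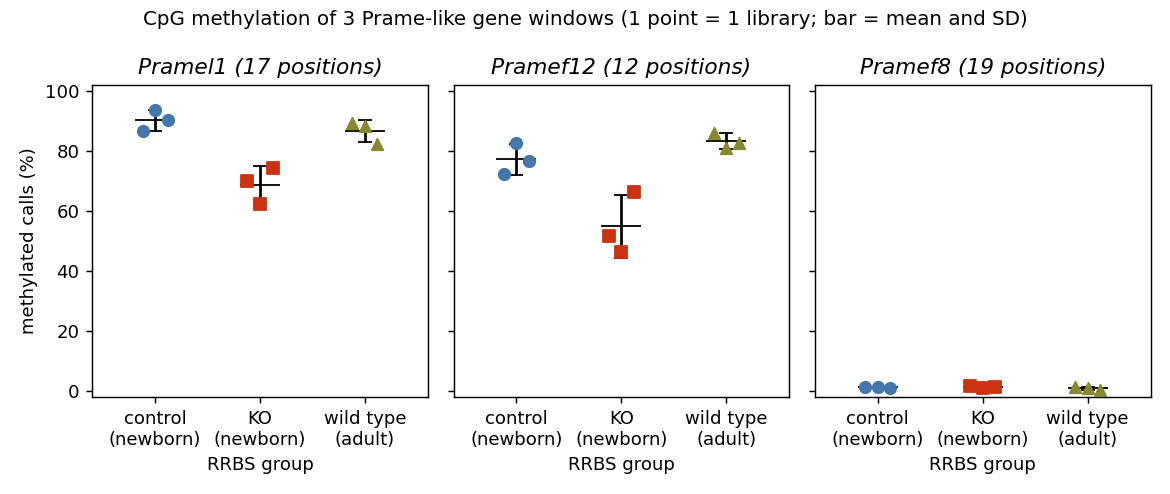
Methylated calls in percent for the Pramel1, Pramef12 and Pramef8 windows, with 1 point per library and a bar for the mean and SD of 3 libraries in newborn control, newborn KO and adult wild type. The KO points lie below all others for Pramel1 and Pramef12, and all 9 points lie near 0 for Pramef8.

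**Figure D4:**
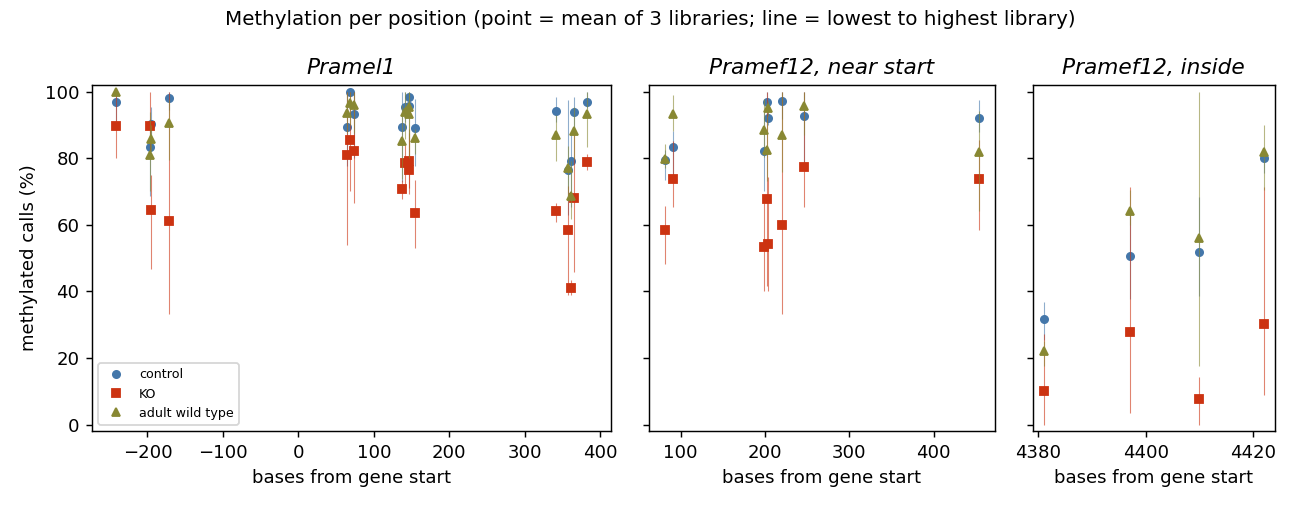
Methylated calls in percent at each position of Pramel1 (17 positions) and of both places of Pramef12 (8 and 4 positions) by distance in bases from the gene start. Points are means of 3 libraries and vertical lines run from the lowest to the highest library. KO means are lower at 16 of 17 and at 12 of 12 positions.

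The silent pair could be read only in a wider surround. Within 10 kb on each side, Pramel6 had 8 positions and Pramel7 had 3, of which 2 are shared, and none lay within 2 kb of either gene. At Pramel6 the level was 93.8%, 88.2% and 91.4% in controls and 61.2%, 67.6% and 79.5% in KO libraries. At Pramel7 it was 80.3%, 77.8% and 74.2% in controls and 49.6%, 50% and 71.9% in KO libraries.

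Every KO library was below every control in both surrounds, with differences of -21.7 and -20.2 points (exact permutation p = 0.1 for each). Pramel6 and Pramel7 had no count in either genotype. Within 10 kb, the switched-on Pramel1 differed by -19.1 points (exact permutation p = 0.1) on 22 positions, of which 17 lay within 2 kb of the gene. Read at the same width, the switched-on C87499 (8 positions) had 8.67%, 11.2% and 12.3% in controls. Its KO libraries had 16.3%, 7.77% and 12.6%, and the groups overlapped (exact permutation p = 0.6). All other switched-on genes with enough calls at this width had lower KO means, some on few positions. Gm12794 (1 position) went from 90.8% to 53.1% and Gm13083 (1 position) from 89.8% to 60.7% (exact permutation p = 0.1 for each). B020004J07Rik (3 positions) went from 96.9% to 77.1%, with overlapping libraries (exact permutation p = 0.3). The silent Gm13103 (12 positions) went from 79.1 ± 1.39% to 59.3 ± 5.49% (SD, n = 3; exact permutation p = 0.1). Among the other family genes, Pramel3 alone had a testable window at 2 kb, on 1 position: 88.6 ± 2.33% in controls and 59.3 ± 8.58% in KO (SD, n = 3; adjusted p 0.000789, same fit).

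Adult kidney gives a contrast the choice of members did not touch. At 6 weeks the wild type libraries had 89.3%, 88.2% and 82.4% methylation at Pramel1, 86.1%, 81.0% and 82.7% at Pramef12 and 1.37%, 0.923% and 0.467% at Pramef8. The differences from newborn controls were -3.59 points at Pramel1 (adjusted p 0.125), 6.01 at Pramef12 (adjusted p 0.301) and -0.37 at Pramef8 (adjusted p 0.337, same fit), so none passed the threshold. Over 17266 windows in this contrast 25.8% were lower and 4.83% higher. The adult group shares no RNA library, so the genes' adult RNA level was not analysed here.

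The next lists hold partners and pathways of the PRAME proteins. None of the 6 CUL2 ligase genes listed (Cul2, Elob, Eloc, Rbx1, Klhdc10, Vhl) passed the test in either direction, with a list median log2 fold change of 0.13 beside -0.00074 over all genes tested. Cul2 itself, the scaffold, had 1237, 1265 and 1624 counts in controls and 1475, 1599 and 1321 in KO libraries (log2 fold change 0.28, SE 0.11, edgeR adjusted p 0.161). Among 7 genes of methylation upkeep, 6 were tested and Dnmt1 alone fell. Uhrf1, the substrate of PRAMEL7 named above, had a log2 fold change of 0.31 (SE 0.10; edgeR adjusted p 0.0806), and Dnmt3l was not tested.

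Of 15 retinoic acid genes tested, 4 rose and 0 fell, with a list median of 0.41. Over all 18132 genes tested, 6.36% were higher and 8.23% lower. Aldh1a2, which makes retinoic acid, had 8345, 6829 and 5515 counts in controls and 12336, 12568 and 12484 in KO libraries, a log2 fold change of 1.02 (SE 0.20; edgeR adjusted p 0.0126). Crabp2, a retinoic acid carrier, rose by 1.51 on that scale (SE 0.32; adjusted p 0.0173) and Rarb, a receptor and target, by 0.61 (SE 0.14; adjusted p 0.0244). Stra8, a retinoic acid target of germ cells, had no count in controls and 28, 32 and 22 in KO libraries. It passed the filter through its KO counts alone, so its call, counted among the 4, restates the filter. The call for Aldh1a2 was lost without KO 3 (adjusted p 0.0577), that for Crabp2 without KO 2 or KO 3 (up to 0.0693) and that for Rarb under 4 alternatives, the replicate block and the loss of control 1, KO 1 or KO 3 (up to 0.115). Of 8 LIF and STAT3 genes, 0 rose and 0 fell (median -0.09), and Pramel6 and Pramel7 stayed at 0 beside them.

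Markers of cells that normally express PRAME family genes were also measured. Of 9 germ cell markers, 7 were tested and 4 rose (Ddx4, Dazl, Mael, Stra8), of which Dazl, Mael and Stra8 passed the filter through their KO counts. The summed level went from 3.81 to 5.27 CPM in controls to 66.6 to 107 CPM in KO libraries. Most of that sum was Dazl, with 0, 5 and 4 counts in controls and 2060, 1780 and 2532 in KO, while Dppa3 was at 0 in all 6 libraries, Nanos2 held at most 3 counts, and Nanos3 (adjusted p 0.888) and Sycp3 (adjusted p 0.901, edgeR) did not pass. Of 8 oocyte markers, 2 were tested and Gdf9 rose, from 6, 7 and 9 to 31, 18 and 11 counts (edgeR adjusted p 0.0468), a call lost under 9 alternatives. Gdf9 too passed the filter through its KO counts, so its call describes the filter as much as the gene. Bmp15, the other tested, leaned down, from 13, 13 and 31 to 7, 11 and 3 counts (log2 fold change -1.24, SE 0.52, edgeR adjusted p 0.166). Oosp1 was at 0 throughout, and the oocyte sum was 0.670 to 1.41 CPM in controls and 0.912 to 2.06 CPM in KO. The part of any such cells in the Prame-like counts was not tested.

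Markers of the 2-cell embryo, which include Zscan4 and Usp17l genes, were nearly absent from controls. Of 7 listed, 6 were tested and 6 rose, but they held at most 2 counts over the controls and passed the filter through their KO counts, so the calls restate the filter. Their sum went from 0 to 0.0609 CPM in controls to 76.2 to 166 CPM in KO libraries. Zscan4c held 1043, 135 and 1054 KO counts and Usp17le held 965, 801 and 929, so the first varied widely and the second did not. Of 7 pluripotent cell markers only Esrrb was tested, and it fell from 698, 707 and 575 to 44, 86 and 27 counts (edgeR adjusted p 0.000837). Pou5f1 held 1 count in all 6 libraries. Nanog and Sox2 held at most 5 counts in any library, Zfp42 at most 3, Tdgf1 at most 1 and Utf1 at most 10. Esrrb, at 19.9 CPM in controls, was thus alone in its list at a clear control level, and its fall is given for that gene only.

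RNA of markers for the kidney's own cell types also differed between the groups in part. All 6 tubule markers fell, their sum going from 2299 to 4215 CPM in controls to 335 to 408 CPM in KO, and all 5 podocyte markers fell, from 721 to 995 to between 264 and 342 CPM. Of 6 nephron progenitor markers 2 rose and 1 fell, with sums of 134 to 291 CPM in controls and 220 to 266 CPM in KO, and Six2 itself had a log2 fold change of 0.20 (SE 0.31; edgeR adjusted p 0.741). Of 5 ureteric markers 2 rose (357 to 834 CPM in controls, 463 to 828 in KO), of 5 stromal markers 3 rose (2862 to 3457, then 2869 to 3377), of 4 endothelial markers 3 fell (472 to 701, then 318 to 394), and of 4 leukocyte markers 1 rose (61.0 to 80.3, then 59.1 to 87.2). Of 9 gonadal and adrenal markers, 5 were tested and Sox9 rose, the sum being 17.6 to 24.95 CPM in controls and 28.1 to 45.7 CPM in KO, with Foxl2 at 0. Sox9 made up most of each sum (14.0, 16.8 and 16.4 CPM, then 40.1, 29.1 and 22.9 CPM), so the sum describes mainly that gene. Nr5a1 was lower in every KO library (log2 fold change -1.05, SE 0.45, edgeR adjusted p 0.166). Cyp11a1 was higher in every KO library (0.84, SE 0.32, edgeR adjusted p 0.130). The groups overlapped for Amh (0.69) and Star (-0.20). Of the marker calls counted here, those of Ddx4, Sox9, Eya1, Osr1, Ret, Meis1, Wt1, Synpo, Pecam1, Cdh5 and Ptprc were lost without at least 1 library. The part of these marker differences in the Prame-like counts was not tested.

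The named genes outside the family whose pattern was most like the mean of the 4 switched-on members, by root mean square distance of log2(CPM + 1) over 6 libraries and among genes with no control count, were Usp17ld (0.143), Mov10l1 (0.162), Usp17la (0.265), Tcstv3 (0.288) and Wdr49 (0.289). Usp17ld held 211, 169 and 219 KO counts. Mov10l1, a helicase of the piRNA pathway in the germline, held 171, 182 and 196. Tcstv3, a gene of the 2-cell stage, held 272, 240 and 260. Usp17la held 200, 143 and 263 and Wdr49 held 232, 135 and 274, so the KO libraries of these last genes lay further apart. That no control held a count was a condition of the choice. The mean profile averages members at 33.2, 24.0, 1.53 and 0.436 CPM in KO. These 5 genes had KO means of 6.25 to 8.74 CPM, so they match the average and not the level of any single member.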

How the data were processed

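The authors deposited, for RNA, raw counts per gene and, for RRBS, the percent methylation per position with the methylated and unmethylated calls behind it. Per the submitters' processing notes, Trim Galore, Bismark, STAR 2.4.1d and HTSeq 0.6.1 were used, with builds mm10 and GRCm38. Reads were not re-aligned, and 5 lines of unassigned reads (no feature 4.998% to 8.38%, not unique 13.97% to 28.0%) were left out of library sizes. Members were matched by symbol or RefSeq synonym (GRCm38.p6). Members and lists were chosen with earlier results of these data known. Values are given for the 8 members, Dnmt1, counted family genes (names starting with Prame or Oog), the 16 lists fixed for pathways and markers, neighbours, and the 5 genes closest in pattern.

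RNA was fitted with edgeR 4.0.16 (TMM, filterByExpr, quasi-likelihood, Benjamini-Hochberg, threshold 0.05) over 18132 genes. RRBS windows with at least 20 calls in each library were fitted with a quasi-binomial model, dispersions moderated with limma 3.58.1. Both were tested on simulated data. Promoters were aligned globally with Biopython 1.88 (match 1, mismatch -1, gap opening -3, extension -0.5). Intervals of ratios and floors cover counting error only.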

Additional observations from a re-analysis of the deposited data

How the results depend on the processing

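Genes higher and lower in KO (1153 and 1493) became 528 and 681 at an adjusted p under 0.01, 678 higher with at least 10 counts in every library, 1675 and 1842 with DESeq2, and 647 to 2512 higher and 701 to 2561 lower when 1 library was left out. Without control 3 they were 2512 and 2561, and without KO 1 they were 647 and 701. Calls also moved by over 1.5 times without control 1, KO 2 or KO 3 (734, 742 and 734 higher; 779 and 790 lower without KO 2 and KO 3). No called value changed sign under the alternatives run. Windows lower in KO (10073 of 17071) became 882 of 10580 within 1 kb of the gene start. Windows higher in KO (7) became 4 with at least 1 call a position, 75 with limma on log2 ratios, and 3 to 13 with 1 library left out, 3 without KO 1 and 13 without KO 2. Windows lower in adult (4457) became 2516 within 1 kb of the start and 2729 with limma, and 2778 to 4637 with 1 library left out, lowest without control 2 and at 2923 without adult 3. Windows higher in adult (834) became 341 and 478 under the first 2 of these, and 570 to 762 with 1 library left out. The causes were not tested.

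With every position weighing the same, the Pramef12 difference was -28.0 points (KO) and -0.20 points (adult), and the Pramef8 difference was -0.69 points (KO). Across the alternatives the Pramel1 difference stayed between -24.6 and -18.1 points (adjusted p up to 0.00499), and that of Pramef12 between -28.1 and -14.7 (adjusted p up to 0.0157). With 1 library left out, the ranges were -24.1 to -18.1 for Pramel1, -28.1 to -18.2 for Pramef12 and -0.05 to 0.29 for Pramef8 in KO, and -5.30 to -1.47, 3.57 to 8.65 and -0.59 to -0.14 in adult. Windows lower in KO ranged from 8205 to 10083 with 1 library left out. The RNA log2 fold change ranged from 0.22 to 0.44 for Pramef8 and from -1.09 to -0.38 for Pramef12. The Dnmt1 value ranged from -0.82 to -0.66 (adjusted p up to 0.0358).

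Same-numbered RNA libraries did not deviate together (correlations -0.28, -0.10 and -0.15). Such values from 3 libraries a group cannot settle whether the numbers pair them. With the replicate number as a block, 798 genes were higher and 1005 lower, 9975 windows were lower and 4 higher in KO, and 3482 were lower and 687 higher in adult. The Pramel1 and Pramef12 windows kept their calls (adjusted p 0.00146 and 0.00281). RRBS gave values for 3 of the 8 members: Pramef25 and Pramef17 held no position, BC080695 no coordinates, and Pramel6 and Pramel7 no position with enough calls. KO 3 gave few calls per position. Family copies that share reads limit the RNA counts.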
